A study of Mus musculus with 90 samples.

Results

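The immediate early genes described here are Fos, Fosb, Junb, Egr1, Egr2, Egr3, Arc, Nr4a1, Ier2 and Atf3, chosen by name and found in the deposited expression table by their Entrez Gene identifiers, and they make up 10 of the 20414 genes listed. RNA was sequenced from 15 tissues of wildtype female C57BL/6 mice in estrus or in diestrus, with 3 libraries for each tissue and phase and 90 libraries in all. The study's methods assign 3 mice to each phase and take the 15 tissues from them, so libraries of different tissues share animals, and the labels do not say which libraries came from the same mouse. The mice carried no transgene and received no drug, their age is given as 10 weeks by the sample labels, and their phase was read from stained vaginal secretions. The tissues were aorta, vein, heart, skeletal muscle, brown adipose tissue (BAT), white adipose tissue (WAT), liver, kidney, spleen, stomach, duodenum, cerebrum, hypothalamus, ovary and uterus. RNA came from bulk tissue, and how much of each organ was taken is not stated. In every tissue a lower number of cells of one type and less RNA in each such cell therefore cannot be told apart. Values are FPKM, the fragments of a gene divided by its transcript length and by the size of the library, which can be compared between genes as levels per length.

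Immediate early genes are transcribed within minutes of a stimulus, from factors already present in the cell, and their mRNAs are short-lived. Growth factors, stretch, wounding and calcium entry into firing neurons all induce them, mostly through serum response factor (SRF), which binds the CArG box of a promoter, and through CREB, which binds the cyclic AMP response element TGACGTCA or its shorter form TGACG. Most of them encode transcription factors that set off a second wave of genes, so that their level can follow recent stimulation of a tissue. Fos, Fosb and Junb are subunits of the dimeric factor AP-1, the Egr genes encode zinc finger factors, Nr4a1 encodes the orphan nuclear receptor Nur77, Arc encodes a protein of neuronal dendrites that acts in the removal of glutamate receptors from synapses, Ier2 encodes a small nuclear protein, and Atf3 encodes a stress-induced factor of the ATF/CREB family.

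Promoter sequences from RefSeq (GRCm38.p6) were matched for 6 of the 10 genes, Fos, Fosb, Junb, Egr2, Nr4a1 and Atf3, and 4 are shown because their genes stood highest in different tissues. Each line gives the 250 bases before an annotated start, read 5′ to 3′ on the strand of the gene, with TGACG on either strand (TGACG or CGTCA) and the CArG box in capitals. The windows are chr12:85473640-85473889 on the plus strand for Fos, chr8:84978749-84978998 on the minus strand for Junb, chr10:67537619-67537868 on the plus strand for Egr2 and chr15:101266596-101266845 on the plus strand for Nr4a1.
Fos: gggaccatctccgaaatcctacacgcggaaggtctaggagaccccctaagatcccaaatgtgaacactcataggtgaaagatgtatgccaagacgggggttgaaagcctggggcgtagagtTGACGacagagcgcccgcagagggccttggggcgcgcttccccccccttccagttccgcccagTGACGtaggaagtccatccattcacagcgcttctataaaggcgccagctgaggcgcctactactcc
Junb: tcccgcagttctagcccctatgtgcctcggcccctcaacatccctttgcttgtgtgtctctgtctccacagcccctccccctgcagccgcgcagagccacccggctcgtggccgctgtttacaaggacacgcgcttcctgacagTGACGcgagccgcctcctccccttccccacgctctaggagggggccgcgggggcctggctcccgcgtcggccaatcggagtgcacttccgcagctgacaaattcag
Egr2: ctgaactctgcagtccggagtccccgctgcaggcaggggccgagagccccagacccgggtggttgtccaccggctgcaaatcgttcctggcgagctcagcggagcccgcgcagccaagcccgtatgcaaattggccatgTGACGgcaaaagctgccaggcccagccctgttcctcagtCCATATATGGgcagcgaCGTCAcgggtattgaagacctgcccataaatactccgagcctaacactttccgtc
Nr4a1: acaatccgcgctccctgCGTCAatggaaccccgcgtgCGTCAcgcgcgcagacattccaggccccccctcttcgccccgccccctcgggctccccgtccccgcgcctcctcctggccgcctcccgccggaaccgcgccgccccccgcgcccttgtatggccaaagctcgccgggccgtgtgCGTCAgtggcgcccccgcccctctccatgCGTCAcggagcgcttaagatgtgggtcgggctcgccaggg
TGACG was found 4 times in the Nr4a1 window, 2 times each in the Fos and Egr2 windows and 1 time in the Junb window, and it is present in 17.8% of 32851 RefSeq windows of 250 bases. The windows of Fosb and Atf3 held it 1 time each. A CArG box stood in the Egr2 window, against 1.47% of all windows. RefSeq gives 5 annotated starts of Egr2 with a window each, of which 4 hold a CArG box and 3 hold TGACG, and the window shown is the first of the 3 with both. The windows of Fos, Junb and Nr4a1 hold no CArG box, and the complete TGACGTCA, which 1.55% of all windows hold, was in none of the 4. A match is a string of letters in this window and was not tested as a binding site.

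The depth behind the values was approximated from the steps between the FPKM of short genes, since the table holds no counts, and came to 8.60M to 23.2M reads in 89 libraries (median 15.2M). In a library of median depth 1 read was worth 0.0166 FPKM for Egr3 and 0.0431 FPKM for Ier2. These were the lowest and highest of the 9 genes with a transcript length at hand, the longest transcript of each gene being used. BAT estrus replicate 3 was far shallower, at 0.0738M reads, and in it 1 read was worth 3.44 to 8.91 FPKM. Its FPKM of 6.39 for Fos, 5.33 for Nr4a1 and 8.80 for Ier2 are therefore the worth of about 1 read each, and its zeros for Fosb, Egr2, Egr3, Arc and Atf3 say little. Marker genes of the labelled tissue were summed in every library and stood highest in their own tissue in 13 of the 14 tissues checked (spleen was not), the exception being vein, which came after aorta for smooth muscle genes. In 9 libraries the summed markers of another cell type or layer, or in aorta of smooth muscle itself, reached 100 FPKM and 3 times the next library of the tissue. Duodenum estrus replicate 1 went against its label most clearly. Its stomach epithelium genes summed to 7561 FPKM, against 0 to 2.12 FPKM in the other 5 duodenum libraries and 6669 to 10723 FPKM in stomach, while its duodenum epithelium genes (1454 FPKM) were the lowest of the 6 (2228 to 5654 FPKM in the others). Smooth muscle genes stood apart in the same library and in estrus replicate 1 of aorta and WAT, and squamous and neutrophil genes in uterus estrus replicate 3. These 4 libraries, with smooth muscle or epithelium, were chosen after their values were seen, and counts over tissues are also given without them. The other 5 were BAT diestrus replicate 3 (skeletal muscle fibre), uterus estrus replicate 1 (macrophage), and hypothalamus diestrus replicate 3, uterus diestrus replicate 3 and WAT estrus replicate 3 (erythroid cell), each of which is left out in the alternatives that drop single replicates.

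The 10 genes had different tissues at the top. By mean FPKM, Fosb, Egr1, Egr3 and Arc of the 10 were highest in cerebrum, Fos and Atf3 in duodenum, Junb in stomach, Egr2 in spleen, Nr4a1 in skeletal muscle and Ier2 in uterus. Liver was the lowest tissue for 6 of them, Fos, Fosb, Egr1, Egr2, Arc and Nr4a1. By mean log2(FPKM + 1), stomach came first for Atf3 and spleen for Ier2, and skeletal muscle was lowest for Egr1. The reach of expression also differed, since the mean of a tissue was at least 1 FPKM in all 15 tissues for Junb, Egr1 and Ier2, in 14 for Nr4a1, 13 for Fos, 11 for Atf3, 8 each for Fosb, Egr3 and Arc, and only 4 for Egr2.

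**Figure D1:**
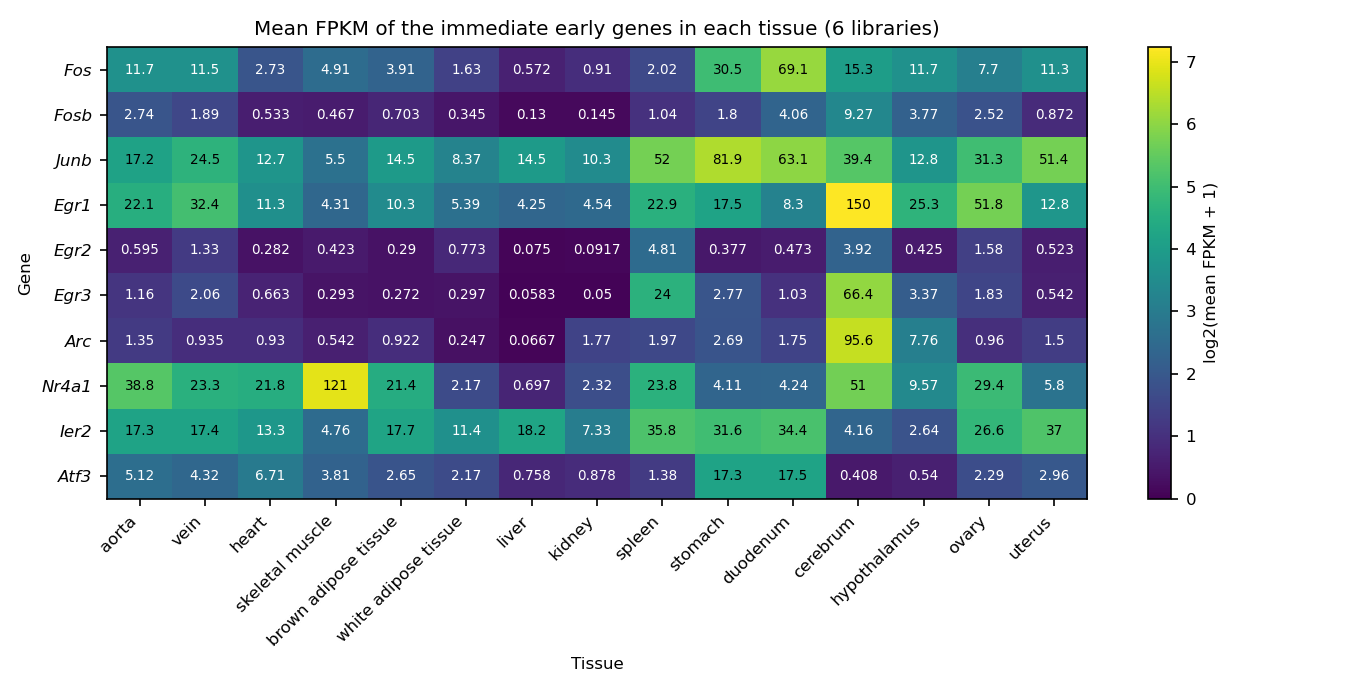
Mean FPKM of each gene (rows) in each tissue (columns) over its 6 libraries, printed in the cells and coloured as log2(mean FPKM + 1). The cerebrum column holds the highest means of Egr1 (150 FPKM), Arc (95.6 FPKM), Egr3 (66.4 FPKM) and Fosb (9.27 FPKM), while Nr4a1 peaks in skeletal muscle (121 FPKM).

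Each tissue was set against the mean of the other 14 on the log2(FPKM + 1) scale in 1 limma fit of all 90 libraries, with Benjamini-Hochberg adjustment over 15226 genes for each tissue. A call needed a log2 difference of 1 or more in size and an adjusted p of at most 0.05. Of the 150 pairs of gene and tissue, 29 (19.3%) were called higher, against 13.7% of the pairs of all genes, and 35 (23.3%) were called lower, against 15.2%. Cerebrum had the most higher calls, with 7 of the 10 genes where 20.3% of all genes were called higher. Liver and kidney had the most lower calls, with 7 each, where 36% of all genes in liver and 9.9% in kidney were called lower. Without the 4 libraries that stood apart in smooth muscle or epithelial genes the counts were 31 and 36. Atf3 in heart and Nr4a1 in vein were then called higher and Arc in duodenum lower. Libraries of different tissues share mice, which this fit and the tests of neighbouring tissues leave out of account. The FPKM were not rescaled between tissues. Their sum over all genes ran from 353706 in a cerebrum library to 623534 in a stomach library. Calls between tissues under other scales are not given here.

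Among the AP-1 genes, Fos spanned the widest range, from a mean of 0.572 ± 0.162 FPKM (SD, n = 6) in liver to 69.1 ± 43.4 FPKM in duodenum. Its duodenum libraries read 108.90, 98.61 and 113.03 FPKM in estrus and 13.26, 51.90 and 29.09 FPKM in diestrus. The stomach libraries read 15.51, 39.25 and 19.20 FPKM in estrus and 31.01, 32.50 and 45.67 FPKM in diestrus. The lowest duodenum library thus lay below every stomach library. Without duodenum estrus replicate 1, the library with stomach epithelium, the duodenum mean was 61.2 FPKM. The mean in stomach was 30.5 FPKM, and in the order of means duodenum and stomach did not differ (exact permutation test of 6 against 6 libraries, two-sided, p = 0.134, adjusted p = 0.522 over the 140 neighbouring pairs of all 10 genes). Behind them by mean FPKM came cerebrum (15.3 FPKM) and then hypothalamus, aorta, vein and uterus, which lay between 11.3 and 11.7 FPKM. In aorta 1 library read 44.82 FPKM and the other 5 read 3.19 to 8.32 FPKM. Neighbours were taken for every gene in the order of mean log2(FPKM + 1), in which aorta came after ovary for Fos. No pair of neighbours in that order of Fos passed the test. Against the other 14 tissues Fos was higher in duodenum by 3.21 (SE 0.27, adjusted p = 8.01e-17), in stomach by 2.25 (SE 0.27, adjusted p = 5.62e-11) and in cerebrum by 1.25 (SE 0.27, adjusted p = 3.50e-05) on the log2 scale. It was called lower in heart, WAT, spleen, kidney and liver.

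Fosb, a close relative of Fos, was a low gene outside the brain. Its mean was 9.27 ± 3.01 FPKM in cerebrum (libraries 13.01, 7.02 and 8.27 in estrus, 5.09, 11.81 and 10.44 in diestrus), 4.06 ± 3.84 FPKM in duodenum and 3.77 ± 1.05 FPKM in hypothalamus. Only cerebrum (log2 difference 2.24, SE 0.21, adjusted p = 2.66e-15) and hypothalamus (1.08, SE 0.21, adjusted p = 4.45e-06) were called higher than the other tissues. In duodenum the 6 libraries ran from 0.50 to 8.99 FPKM, so that its second place rests on a wide spread.

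Junb, a partner of the Fos proteins that dampens growth-promoting AP-1 activity, was the most evenly expressed of the 3 AP-1 genes. Its means ran from 5.50 ± 1.38 FPKM in skeletal muscle to 81.9 ± 13.5 FPKM in stomach, a 14.9-fold range, where that of Fos was 121-fold. Duodenum (63.1 FPKM), spleen (52.0 FPKM) and uterus (51.4 FPKM) followed stomach. In all of these Junb was called higher than in the other 14 tissues, by 2.01 in stomach (SE 0.16, adjusted p = 7.52e-18), 1.56 in duodenum, 1.33 in spleen and 1.27 in uterus. None of its 14 neighbouring pairs of tissues passed the exact test.

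The 3 Egr genes shared a high level in cerebrum and parted elsewhere. Egr1 was the most abundant member of the family in every tissue but spleen, with 150 ± 33.4 FPKM in cerebrum. The cerebrum libraries read 191.08, 183.88 and 100.22 FPKM in estrus and 137.20, 145.95 and 140.56 FPKM in diestrus, and the ovary libraries 29.08, 38.85 and 66.98 FPKM in estrus and 46.02, 43.14 and 86.52 FPKM in diestrus. All cerebrum libraries lay above all ovary libraries, the only step in the order of Egr1 that passed the test (log2 difference 1.57, exact permutation p = 0.0021645, the smallest that 6 against 6 libraries allow, adjusted p = 0.0337). Liver, kidney and skeletal muscle shared the bottom of its order, with means of 4.25, 4.54 and 4.31 FPKM.

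Egr3 was more restricted. Its libraries ran from 38.20 to 94.95 FPKM in cerebrum and from 17.18 to 28.41 FPKM in spleen, with means of 66.4 ± 20.4 and 24.0 ± 4.11 FPKM. Hypothalamus came next with 3.37 ± 1.29 FPKM. Both steps passed the exact test (cerebrum above spleen by 1.39 and spleen above hypothalamus by 2.55 on the log2 scale, each with the smallest possible p and an adjusted p of 0.0337). In kidney Egr3 averaged 0.05 FPKM, about the worth of a few reads.

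Egr2, best known from hindbrain patterning and from the myelinating Schwann cell, was the lowest of the 3 Egr genes in 10 of the 15 tissues, and Egr3 was lower in BAT, WAT, skeletal muscle, liver and kidney. Egr2 reached 4.81 ± 1.05 FPKM in spleen (libraries 4.27, 3.14 and 5.35 in estrus, 5.40, 6.14 and 4.55 in diestrus) and 3.92 ± 1.15 FPKM in cerebrum, where 6 libraries ran from 2.19 to 5.66 FPKM. These 2 tissues overlapped. They were the only tissues in which Egr2 was called higher than in the other 14, by 1.83 (SE 0.13, adjusted p = 5.44e-21) in spleen and 1.56 (SE 0.13, adjusted p = 6.65e-18) in cerebrum. Ovary (1.58 FPKM) and vein (1.33 FPKM) followed, and the remaining 11 tissues averaged below 1 FPKM.

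Arc stood apart in the brain. In cerebrum its libraries read 149.83, 136.03 and 35.39 FPKM in estrus and 52.02, 119.01 and 81.30 FPKM in diestrus. In hypothalamus they read 10.62, 7.94 and 5.76 FPKM in estrus and 6.98, 8.02 and 7.22 FPKM in diestrus. Every cerebrum library thus exceeded every hypothalamus library, and every hypothalamus library exceeded every stomach library (1.95 to 4.44 FPKM). The 2 steps passed the exact test, at log2 differences of 3.31 and 1.26 (adjusted p = 0.0337 each). Arc was called higher in cerebrum by 5.31 (SE 0.23, adjusted p = 2.87e-31), the largest difference of any of the 10 genes in any tissue, and in hypothalamus by 1.76 (SE 0.23, adjusted p = 4.37e-10). The hypothalamus library with the most Arc, estrus replicate 1, also had the most RNA of the cortical neuron genes Neurod6, Slc17a7 and Tbr1, whose sum was 24.5 FPKM there and 4.82 to 9.72 FPKM in the other 5, against 537 to 791 FPKM in cerebrum, and the part of that RNA in its Arc was not tested.

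Nr4a1 had an order of its own, with skeletal muscle first. The skeletal muscle libraries read 139.33, 149.36 and 126.61 FPKM in estrus and 108.26, 93.66 and 109.27 FPKM in diestrus (mean 121 ± 21.1 FPKM), and the cerebrum libraries ran from 32.44 to 78.45 FPKM. The muscle libraries did not overlap with those of cerebrum (log2 difference 1.27, exact permutation p = 0.0021645, adjusted p = 0.0337). The other immediate early genes did not share this place, since Junb was lowest of all 15 tissues in skeletal muscle and Egr1, Egr3 and Ier2 were called lower there. Against the other 14 tissues Nr4a1 was higher by 3.54 in skeletal muscle (SE 0.28, adjusted p = 1.97e-18) and by 2.18 in cerebrum, and was also called higher in aorta, ovary and spleen. It was called lower in liver, WAT, kidney, duodenum, stomach and uterus.

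Ier2 and Atf3 had low levels in the brain. Ier2 averaged 2.64 ± 1.25 FPKM in hypothalamus and 4.16 ± 1.06 FPKM in cerebrum, its lowest tissues, where it was called lower by 2.30 (SE 0.12, adjusted p = 3.16e-26) and 1.72 (SE 0.12, adjusted p = 4.83e-20). Its highest means were 37.0 FPKM in uterus, 35.8 FPKM in spleen, 34.4 FPKM in duodenum and 31.6 FPKM in stomach, and no pair of neighbours in its order passed the exact test. Atf3 averaged 0.408 ± 0.103 FPKM in cerebrum and 0.540 ± 0.215 FPKM in hypothalamus. It was highest in duodenum (17.5 ± 8.60 FPKM, libraries 5.18 to 25.90) and stomach (17.3 ± 6.15 FPKM, libraries 8.76 to 24.58), which overlapped, and it was called higher in both, by 2.27 (SE 0.23, adjusted p = 4.18e-14) and 2.37 (SE 0.23, adjusted p = 1.26e-14). Heart was next with 6.71 FPKM.

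Seen by tissue, the gut and the brain therefore differed in which genes were high. In duodenum and in stomach the same 4 genes, Fos, Junb, Ier2 and Atf3, were called higher than in the other tissues, where 14.2% and 11.9% of all genes were. Nr4a1 was called lower in both, and Egr1 was called lower in duodenum alone, at -1.10 (SE 0.22, adjusted p = 1.37e-05) there and 0.28 (adjusted p = 0.264) in stomach. In the same tissues 17.2% and 11.9% of all genes were called lower. Without duodenum estrus replicate 1 and the 3 other libraries named above, these calls in duodenum held and Arc was also called lower there (-1.28, adjusted p = 7.35e-09). In cerebrum Fos, Fosb, Egr1, Egr2, Egr3, Arc and Nr4a1 were called higher, and Ier2 and Atf3 lower. Spleen paired higher Junb, Egr2, Egr3, Nr4a1 and Ier2 with lower Fos. The stomach and duodenum values carry the wide spread described below.

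**Figure D2:**
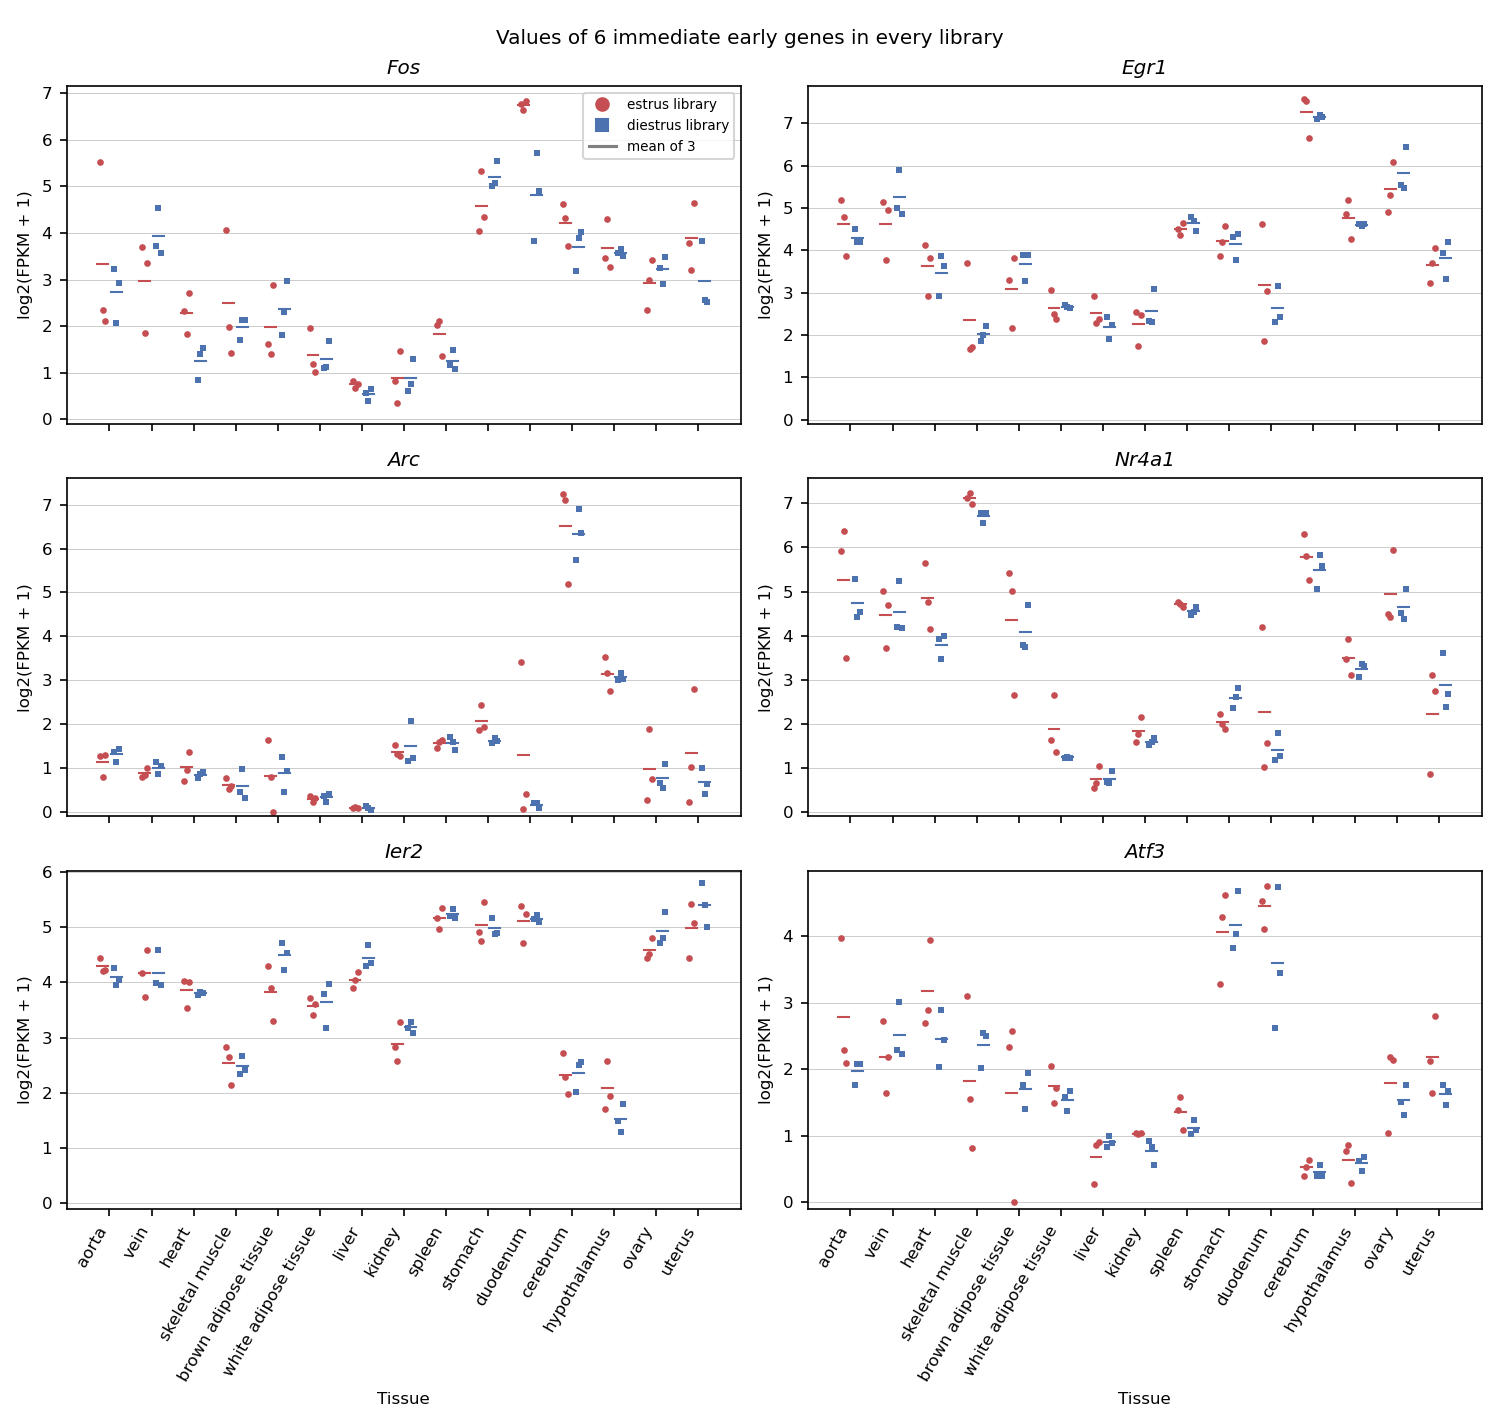
log2(FPKM + 1) of 6 of the genes in every library, by tissue on the horizontal axis, with estrus libraries as red circles, diestrus libraries as blue squares and short lines for the mean of 3. Arc is highest in cerebrum, Nr4a1 is highest in skeletal muscle, and single libraries stand far from their group, such as Fos in aorta at 44.82 FPKM.

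The comparison of estrus with diestrus asked whether the genes followed the cycle in any tissue. Each tissue was tested on its own with limma on log2(FPKM + 1), for the genes whose 6 libraries averaged 1 FPKM or more, with the study's limits of a log2 fold change of 1 or more in size and an adjusted p of at most 0.05. Of the 150 pairs of gene and tissue 111 passed the filter on low values and 39 did not. None of the 111 was called, where over all genes 2 of 185469 pairs were (0.00108%). At an unadjusted p under 0.05, 7 pairs (6.31%) were higher in estrus, against 2.91% of the pairs of all genes, and 3 (2.70%) were lower, against 4.93%. The libraries of the phases did not overlap in 13 pairs (11.7%), against 15% of the pairs of all genes. With 3 libraries against 3 an exact permutation test of a single gene cannot go below 0.1. Within a tissue the p-values measure the spread between these libraries.

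Duodenum held the largest differences. Fos was higher in all 3 estrus libraries (98.61 to 113.03 FPKM) than in all 3 diestrus libraries (13.26 to 51.90 FPKM), a log2 fold change of 1.93 (SE 0.44) that did not pass adjustment (adjusted p = 0.368). Junb was also without overlap, at 88.47, 69.02 and 76.38 FPKM in estrus and 34.69, 58.98 and 51.15 FPKM in diestrus (log2 fold change 0.71, adjusted p = 0.368). Egr3 did not overlap either, at 3.72, 0.75 and 0.81 FPKM against 0.24, 0.34 and 0.35 FPKM (0.91, adjusted p = 0.376), but its difference was 0.44 without estrus replicate 1, where it no longer passed the filter on low values. These 3 of the 9 genes tested are a share near the 26.6% of all genes without overlap in this tissue. Egr3 and Arc were among the 9 only through estrus replicate 1. The median log2 fold change of the 10 genes was 0.85, where the median of all genes was -0.16, and 9 of the 10 had a higher mean in estrus.

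For other genes the duodenum difference came from 1 library. Estrus replicate 1, the library with stomach epithelium, read 23.72 FPKM for Egr1, 9.72 for Arc and 17.30 for Nr4a1, where the other 5 libraries held 2.62 to 7.93, 0.05 to 0.32 and 1.03 to 2.49 FPKM. In that library the stomach epithelium sum was 7561 FPKM, against at most 2.12 in the other 5, and the sum of the smooth muscle genes Myh11, Cnn1, Tagln and Acta2 was 1628 FPKM, against 151 to 415. In stomach itself Egr1, Arc and Nr4a1 averaged 17.5, 2.69 and 4.11 FPKM. The part of stomach and of smooth muscle in the values was not tested. Without this library the median of the 10 genes fell to 0.28, while the log2 fold change of Fos was 1.91 (adjusted p = 0.123) and that of Junb 0.61 (adjusted p = 0.134), both still without overlap. Egr1 and Nr4a1 were then at -0.19 and -0.13. Over all the alternatives run the adjusted p of Fos in duodenum (limma) lay between 0.00355 and 0.858.

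**Figure D3:**
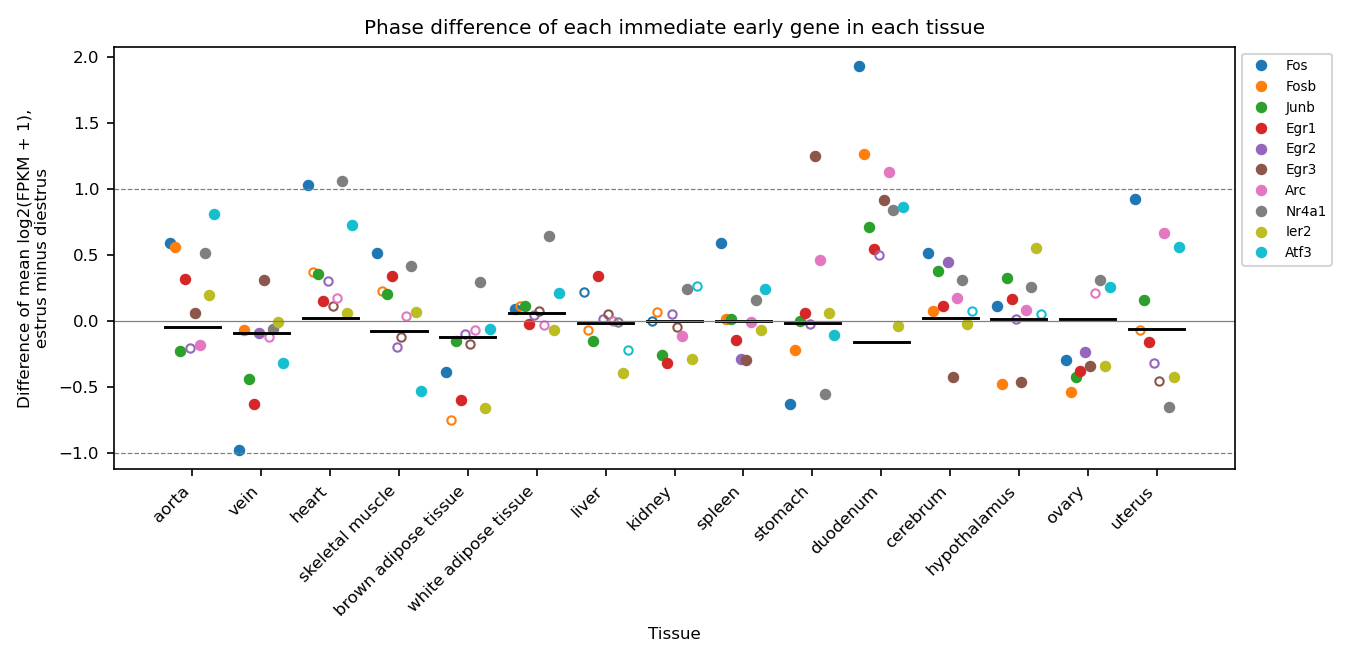
Difference of mean log2(FPKM + 1), estrus minus diestrus, of each gene in each tissue, with filled points for genes that passed the filter and open points for those that did not. Black bars mark the median of all genes tested, and dashed lines the limit of 1. Duodenum stands out, with Fos at 1.93, and in heart all 10 points, open ones among them, lie above the line at 0.

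In heart all 10 genes had a higher mean in estrus, with a median log2 fold change of 0.33 against 0.02 over all genes. Of these, Fosb, Egr2, Egr3 and Arc averaged below 1 FPKM and were not tested. The 10 genes were read in the same 6 libraries, so they are not 10 separate observations. Fos read 3.99, 2.57 and 5.52 FPKM in estrus and 0.79, 1.64 and 1.90 FPKM in diestrus (log2 fold change 1.03, SE 0.25, adjusted p = 0.792). Nr4a1 read 48.91, 26.17 and 16.77 FPKM in estrus and 14.28, 10.04 and 14.81 FPKM in diestrus (1.06, adjusted p = 0.792). Neither gene overlapped between the phases, 2 of the 6 tested where 11.7% of all genes did not overlap. Atf3 leaned the same way, at 0.72 (adjusted p = 0.803), with 14.33 FPKM in estrus replicate 3 and 3.10 to 6.45 FPKM in the other 5 libraries. The summed cardiomyocyte genes Myh6, Tnnt2 and Tnni3 also did not overlap, at 17997 to 19231 FPKM in estrus and 19353 to 20438 FPKM in diestrus, and the same held for the neutrophil genes, at 2.94 to 4.95 and 1.69 to 1.87 FPKM. Their part in the heart values was not tested.

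In the brain the differences ran in both directions. Fosb in hypothalamus read 3.35, 3.55 and 2.12 FPKM in estrus and 4.33, 4.05 and 5.23 FPKM in diestrus, without overlap and lower in estrus by a log2 fold change of -0.48 (adjusted p = 0.282). Junb leaned the other way there, at 11.87, 19.81 and 11.75 FPKM against 10.99, 10.89 and 11.22 FPKM (0.32, adjusted p = 0.452), and Ier2 did so at 0.55 (adjusted p = 0.361). Those 2 pairs without overlap are among 8 tested, where 19.6% of all genes did not overlap. In cerebrum none of the 9 genes tested separated the phases, and the differences ran from -0.42 for Egr3 to 0.51 for Fos.

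Nr4a1 separated the phases in 4 of the 14 tissues in which it was tested (28.6%), not all in the same direction, where 15% of all pairs did. In skeletal muscle, its highest tissue, where 26.2% of all genes did not overlap, all 3 estrus libraries (126.61 to 149.36 FPKM) lay above all 3 diestrus libraries (93.66 to 109.27 FPKM), at a log2 fold change of 0.41 (adjusted p = 0.101). Estrus was also higher in heart, given above, and in WAT, where estrus read 2.08, 5.28 and 1.58 FPKM and diestrus 1.35, 1.39 and 1.34 FPKM (0.64, adjusted p = 0.791), with 12% of all genes without overlap. Leaving out estrus replicate 2 took the WAT difference to 0.26, and leaving out estrus replicate 1 took it to 0.77. In stomach estrus was lower, at 3.70, 2.98 and 2.69 FPKM against 4.11, 5.14 and 6.05 FPKM (-0.56, adjusted p = 0.671), with 13.7% of all genes without overlap. The remaining separated pairs among those tested were Ier2 in liver, Arc in stomach and Atf3 in aorta. Ier2 in liver was lower in estrus (-0.40, adjusted p = 0.811, 11.3% of all genes without overlap). Arc in stomach (0.46, adjusted p = 0.672) and Atf3 in aorta (0.81, adjusted p = 0.933, 11.9% of all genes without overlap) were higher. Atf3 in aorta rested on estrus replicate 1, at 14.69 FPKM beside 3.88 and 3.25 FPKM in estrus and 2.41, 3.22 and 3.24 FPKM in diestrus, and the difference was 0.21 without it.

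In the reproductive tract no tested pair separated the phases. Egr3 in uterus, which did not pass the filter on low values, read 0.14, 0.44 and 0.31 FPKM in estrus and 0.91, 0.51 and 0.94 FPKM in diestrus. In ovary 7 of the 10 genes had a lower mean in estrus, with a median log2 fold change of -0.32 against 0.01 over all genes. In uterus Fos read 12.87, 8.24 and 24.16 FPKM in estrus and 13.16, 4.88 and 4.75 FPKM in diestrus, which overlapped (0.92, adjusted p = 0.897). Without estrus replicate 3 the difference was 0.53. Its highest library, estrus replicate 3, also had 5.92 FPKM of Arc, against 0.18 to 1.02 FPKM in the other 5. The squamous keratin genes Krt5, Krt14 and Krt1 summed to 726 FPKM there, against 0.37 to 31.6 FPKM, and the neutrophil genes to 128 FPKM, against 3.52 to 13.9 FPKM. Their part in these values was not tested.

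Over all 15 tissues at once, with tissue as a term in 1 limma fit of the 90 libraries, none of the 10 genes passed the test between the phases. The fit counts libraries and not the mice they share, so its p-values are too small if tissues of a mouse vary together. With phase and number as a random block, in case a number marks a mouse, Fos had an adjusted p of 0.597. The largest differences were 0.28 for Fos (SE 0.15, adjusted p = 0.440) and 0.25 for Nr4a1 (SE 0.14, adjusted p = 0.446), followed by Atf3 at 0.18, Arc at 0.16 and Ier2 at -0.09, and the other 5 genes lay between -0.02 and 0.04. Over all genes 0.118% passed at an adjusted p of at most 0.05 and 12% at an unadjusted p under 0.05, which none of the 10 reached. Whether the phase difference varied between tissues was tested as an interaction. No gene of the 10 passed (lowest adjusted p 0.249 for Egr3 and 0.254 for Fos), where 3.88% of all genes did, and 2 of the 10, Fos and Egr3, had an unadjusted p under 0.05. Leaving out libraries changed this. Without estrus replicate 1 of every tissue Fos passed (adjusted p = 0.0470), and without estrus replicate 2 Fosb (0.0128) and Egr3 (0.000312) did. Under the other alternatives run their adjusted p went up to 1. The share of all genes that passed the interaction with replicates left out is not given here, so these results have no background beside them. In the tests within tissues, calls over all genes went from 2 pairs to 99 without estrus replicate 1 and to 11 without estrus replicate 2.

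When all 90 libraries shared 1 estimate of the spread, 3 pairs were called between the phases, Fos and Fosb in duodenum and Egr3 in stomach, against 1.14% of the pairs of all genes. In that fit Fos in duodenum had an adjusted p of 0.00961. Without the 4 libraries that stood apart in smooth muscle or epithelial genes Fos in duodenum (adjusted p = 0.00355) and Egr3 in stomach (0.0179) were called and Fosb was not. The share of all genes called in that fit is not given here. None of the 4 is a stomach library, so the stomach libraries with squamous keratin genes, described below, stayed in the fit. A shared estimate assumes that libraries vary alike in all tissues, and the next values show how far the tissues differed.

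The spread between libraries of the same tissue and phase was large for these genes. Of the 111 pairs tested, 101 (91.0%) had a residual SD of log2(FPKM + 1) above the median of all genes in the tissue. The median residual SD of the genes tested ran from 0.16 in spleen to 0.79 in duodenum, against all-gene medians of 0.12 and 0.31. The widest single spread was that of Fos in aorta, with a residual SD of 1.41, followed by Arc in duodenum at 1.31. Nr4a1 in spleen (0.08), Fosb in spleen (0.09) and Nr4a1 in skeletal muscle (0.12) were among the 10 pairs at or below the median. With a filter at a mean of 5 FPKM in the tissue it was 62 of 66 pairs (93.9%).

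**Figure D4:**
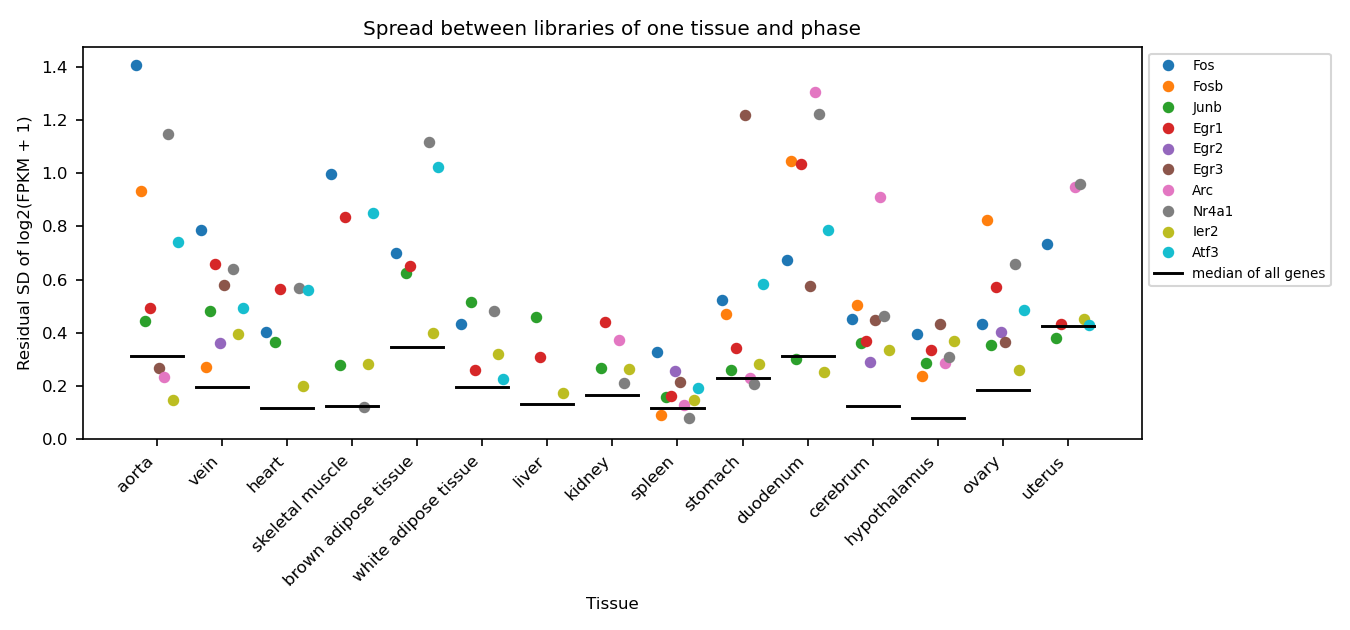
Residual SD of log2(FPKM + 1) between libraries of the same tissue and phase for each gene tested, by tissue, with black bars for the median of all genes tested. Points lie above the bar in 101 of 111 pairs, and in spleen they lie lowest.

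The libraries that were high for one of the genes were often high for the others. In each of the 30 groups of 3 libraries the library with the highest value was found for each gene. At least 7 of the 10 genes were highest in the same library in 14 of the 30 groups, and at least 9 of the 10 in 5 groups. These were skeletal muscle estrus replicate 1, WAT estrus replicate 1, cerebrum estrus replicate 1, vein diestrus replicate 2 and ovary diestrus replicate 3. In skeletal muscle and in WAT the exception was Nr4a1, in cerebrum Atf3, in vein Arc and in ovary Junb. With 3 libraries at least 4 of 10 genes must share the highest one, as they did in all 30 groups. Genes below 1 FPKM and the shallow BAT library are part of the counts. The counts for other sets of 10 genes are not given here, so these have no background beside them.

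Skeletal muscle estrus replicate 1 read 15.80 FPKM for Fos, 12.11 for Egr1, 7.58 for Atf3 and 1.66 for Fosb. The other 5 libraries of the tissue held 1.70 to 3.38, 2.18 to 3.62, 0.76 to 4.86 and 0.08 to 0.33 FPKM. Its skeletal muscle fibre sum (56756 FPKM) and smooth muscle sum (48.3 FPKM) lay within the range of the other 5 libraries (52825 to 69272 and 39.2 to 58.6 FPKM). Of 19 marker lists the library was the highest of the 6 for some. Among these were adipocyte genes (39.1 against 3.63 to 32.5 FPKM), T cell genes (0.88 against 0.07 to 0.44 FPKM) and neutrophil genes (1.57 against 0.76 to 1.24 FPKM). Hypothalamic neuron genes (2.38 against 0 to 2.33 FPKM) and duodenum epithelium genes (0.09 against 0 to 0.04 FPKM) were others. All but the adipocyte sum were low in this library, and the part of these cells was not tested. Without it Atf3 passed the test between the phases in this tissue, lower in estrus at -1.17 (adjusted p = 0.0346), where with all 6 libraries it was at -0.54 (adjusted p = 0.610). With estrus replicate 1 of every tissue left out, 99 of 184711 pairs of all genes were called, against 2 of 185469 with all libraries. In vein, diestrus replicate 2 read 22.30 FPKM for Fos and 58.97 for Egr1, against 2.61 to 12.26 and 12.72 to 34.05 FPKM in the other 5. There the smooth muscle sum was the highest of the 6 (4380 against 1421 to 3177 FPKM), as was that of the endothelial genes (432 against 251 to 345 FPKM), and their part was not tested.

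Deviations from the group mean on the log2(FPKM + 1) scale were positively correlated for all 45 pairs of the 10 genes over the 90 libraries. Pearson's r ran from 0.10 to 0.65 with a median of 0.40. The highest were Fos with Junb (0.65), Fosb with Atf3 (0.64) and Fos with Egr1 (0.64). Libraries of a group differed in depth and in tissue makeup, which all 10 genes of a library share, so the values are descriptions. By replicate number, the mean of the 10 genes lay above its group mean in 11 of 15 tissues for diestrus replicate 3 and in 10 of 15 for estrus replicate 1, and in 3 of 15 each for estrus replicate 2 and diestrus replicate 1.

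Some high libraries also stood apart in marker genes. In aorta estrus replicate 1, Fos was 44.82 FPKM, Atf3 14.69 and Fosb 8.44, where the other 5 libraries held 3.19 to 8.32, 2.41 to 3.88 and 0.82 to 2.91 FPKM. The smooth muscle genes, which are the markers of aorta itself, summed to 15590 FPKM there, against 1551 to 2376 FPKM in the other 5. The brown adipocyte genes (325 against 2493 to 4772 FPKM) and the cardiomyocyte genes (219 against 1140 to 2549 FPKM) were lower in the same library, and the ovary genes were higher (214 against 2.73 to 5.18 FPKM). Without it the median log2 difference of the 10 genes in aorta, 0.26 with all 6 libraries, was -0.10. In WAT estrus replicate 1 the smooth muscle sum was 2409 against 88.8 to 244 FPKM, and the median of 0.08 was -0.10 without it. The part of these cells was not tested in either tissue.

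Stomach and vein gave the same kind of reading for Egr3. In stomach it read 4.30, 0.18 and 9.76 FPKM in estrus and 1.61, 0.60 and 0.20 FPKM in diestrus, while the squamous keratin genes summed to 2815, 68.8 and 4641 FPKM and to 741, 275 and 0.86 FPKM in the same libraries. The 3 libraries with the highest keratin sums were the 3 with the most Egr3. In vein estrus replicate 3 Egr3 was 4.66 FPKM, against 1.12 to 2.48 FPKM in the other 5 (log2 fold change 0.31, and -0.11 without it), and the T cell genes of the CD3 complex summed to 73.8 FPKM, against 2.89 to 7.21 FPKM. The part of squamous and T cells in these values was not tested.

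**Figure D5:**
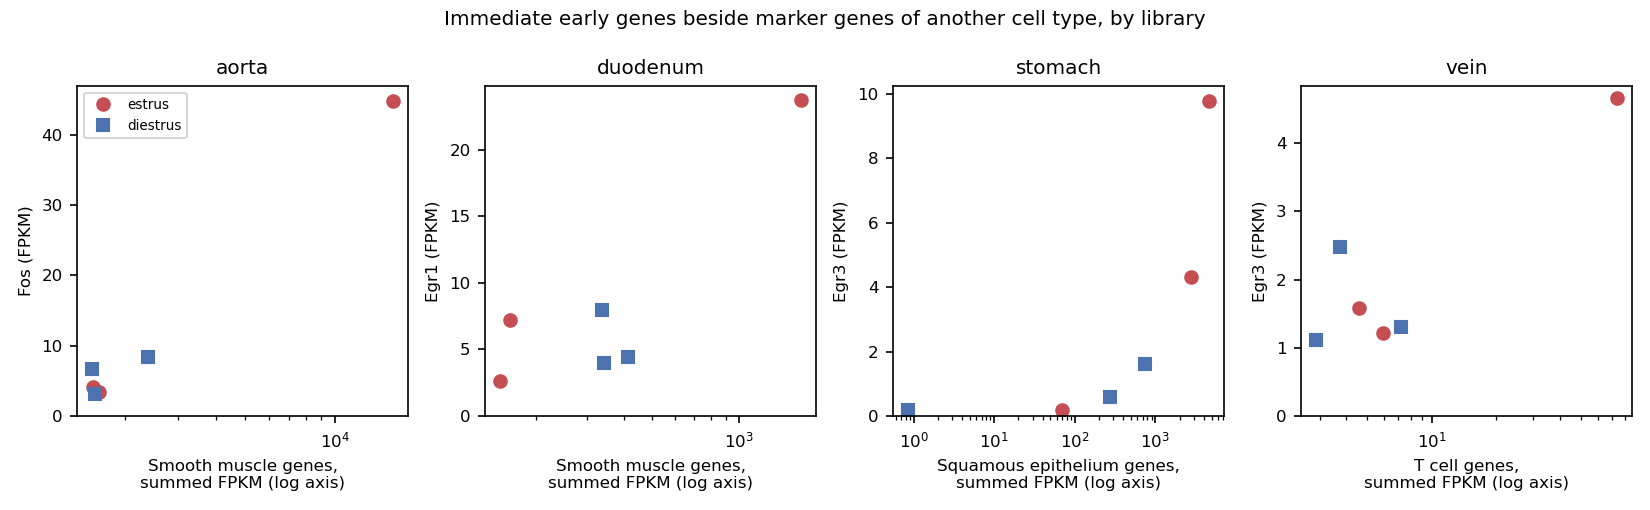
FPKM of an immediate early gene (vertical axis, from 0) against the summed FPKM of marker genes (horizontal log axis) in the 6 libraries of aorta, duodenum, stomach and vein. The markers are smooth muscle genes in aorta, which are its own, and in duodenum, squamous epithelium genes in stomach and T cell genes in vein. Estrus libraries are red circles and diestrus libraries blue squares. In aorta, duodenum and vein a single estrus library holds both the highest marker sum and the highest value, at 44.82 FPKM of Fos, 23.72 FPKM of Egr1 and 4.66 FPKM of Egr3.

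Other genes of the early response were taken from a list of 36, among them Jun, Fosl2, Dusp1, Klf4, Nr4a3, Npas4 and Per1. Within tissues 472 pairs of gene and tissue were tested and none was called. At an unadjusted p under 0.05, 44 (9.32%) were higher in estrus and 10 (2.12%) lower, beside 2.91% and 4.93% of the pairs of all genes. Duodenum gave 9 of the higher ones from 32 genes tested, among them Jun (log2 fold change 1.01), Klf4 (1.24), Btg2 (0.97) and Per1 (1.64), each with an adjusted p of 0.368. In that tissue 1677 of 12410 genes had an unadjusted p under 0.05 in either direction. Heart gave 8 from 30 genes tested, among them Sik1 (0.82) and Fosl2 (0.53), each with an adjusted p of 0.792. There 707 of 11592 genes had an unadjusted p under 0.05 in either direction. Jun, the chief partner of Fos in AP-1, was highest in uterus (40.4 FPKM), and Npas4, a factor induced by neuronal activity, in cerebrum (8.93 FPKM). Klf4, a factor of differentiated epithelium, was highest in stomach (192 FPKM).

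Of 13 genes upstream of the early response, such as Srf, Creb1 and Mef2c, none was called in 194 pairs, and at an unadjusted p under 0.05 2 (1.03%) were higher and 12 (6.19%) lower, beside the same 2.91% and 4.93% of all pairs. By the same count heat shock genes gave 7 (5.88%) higher and 5 (4.2%) lower of 119 pairs, and genes of the integrated stress response 5 (7.69%) in each direction of 65 pairs. Glucocorticoid-induced genes gave 17 (16.3%) higher and 6 (5.77%) lower of 104 pairs. None of these was called. Of the 17, 5 were in vein (7 tested), 4 in aorta (7 tested) and 4 in duodenum (6 tested). Over all genes 1597 of 13239 in vein, 390 of 12553 in aorta and 1677 of 12410 in duodenum had an unadjusted p under 0.05 in either direction.

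By likeness of deviations, the genes most correlated with the mean of the 10 over the 90 libraries were Tpm4 (r = 0.70), a tropomyosin of the actin cytoskeleton, and Dusp1 (0.68), a phosphatase that switches off MAP kinases and is itself an early gene. Ckap4 (0.68), the gene with identifier 108167549 (0.67), Plaur (0.65), Chst3 (0.65), Cd44 (0.64), Nemp2 (0.64), Xab2 (0.64) and Lbh (0.64) followed. The median r of the 35 other early genes measured was 0.44, that of the 4 smooth muscle genes 0.38 and that of all 15216 genes 0.16. Without the 4 libraries that stood apart in smooth muscle or epithelial genes only 2 of these 10 genes stayed among the 10 most like. These were Tpm4 (r = 0.60) and Dusp1 (r = 0.57).

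By likeness of the 15 tissue means, Arc was closest to Kcnv1 (r = 0.97), a potassium channel subunit, Egr3 to Rasgrp1 (0.93), a Ras activator of lymphocytes and neurons, and Egr2 to Egr3 (0.90). Atf3 was closest to Klf4 (0.93) and Ier2 to Bcl3 (0.93). Nr4a1 was closest to Mef2c (0.88) and Mef2d (0.87), transcription factors of muscle and neurons. Fosb was closest to Septin5 (0.90), Egr1 to Stx1a (0.90), Junb to Arpc2 (0.89) and Fos to Smpd3 (0.88). The 15 points are tissues that differ in most genes, and the values describe resemblance only.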

How the data were processed

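RNA-seq was run on 90 libraries, 3 for each of 15 tissues and 2 phases. Per the labels and the study's methods, the authors filtered reads with SOAPnuke, aligned them with Bowtie2 2.2.5 to GRCm38.p5 and estimated abundance with RSEM 1.2.8. The deposited values are FPKM for 20414 genes, a unit read from the values themselves, since it is not given in the sources used here. The study tested its groups with DEGSeq, which needs counts, so limma 3.58.1 (R 4.3.3) was used in its place, on log2(FPKM + 1) with an intensity trend, with no block, a filter at a mean of 1 FPKM in the tissue and the study's limits. Fold changes on this scale understate those of low genes. The limma procedure was tested on simulated data.

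Depth was approximated from 1459 single-transcript genes between 300 and 1100 bases long. Of their approximated reads 50.3% to 70.4% were whole to within 0.1 reads in a library, so counts were not recovered and give no interval. Symbols came from RefSeq by identifier (20265 of 20414 genes). RefSeq coordinates are of GRCm38.p6, a later patch release than the build the authors used, and were used for promoters only.

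Neighbouring tissues were compared by exact permutation with scipy 1.17.1 under Python 3.11.15 (numpy 2.4.6, pandas 2.3.3, matplotlib 3.10.9). All 10 genes are named in every comparison. Of other genes, the 10 most like in deviations, the most like in tissue means for each gene and examples from the lists are named. The 10 genes, the lists and the markers were chosen with earlier results of these data known. A marker list with an item that is not reported here was left out. Leaving out the 4 libraries that stood apart in smooth muscle or epithelial genes was chosen after seeing the data. Alternatives covered the pseudocount, the filter, the scale, the trend, the fold limit, a replicate block, 1 fit of all libraries and each replicate left out. Same-numbered libraries of the phases did not deviate together in all 3 pairs of any tissue, so the numbers were not used as pairs.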

Additional observations from a re-analysis of the deposited data

Results flagged for a closer look

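Nr4a1 separated the phases in opposite directions in different tissues, in 4 of the 14 tissues tested (28.6%), where 15% of all pairs of gene and tissue separated. All 3 estrus libraries lay above all 3 diestrus libraries in heart (log2 fold change 1.06), skeletal muscle (0.41) and white adipose tissue (0.64), and all 3 lay below them in stomach (-0.56). The difference between these tissues was not tested pair by pair. The interaction of phase and tissue over all 15 tissues had an adjusted p of 0.906 for Nr4a1 (limma), and none of the 4 within-tissue differences passed adjustment.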

How the results depend on the processing

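No gene of the 10 was called between the phases under the other pseudocount, both other scales, both other filters, no trend and no fold limit. Leaving out each replicate in turn gave 0 to 1 called pairs, the 1 being Atf3 in skeletal muscle without estrus replicate 1. That setting also called 99 of 184711 pairs of all genes, against 2 of 185469 with all libraries. The fit of all 90 libraries at once gave 3 called pairs, with Fos in duodenum at the same 1.93, or 2 without the 4 libraries below. The genes that passed the interaction numbered 0 to 2 of the 10 when single replicates were left out, with no share of all genes given for those fits. With a pseudocount of 0.1 the median difference in BAT was -0.66, where it was -0.17, and the shallow library lists 5 of the 10 genes at 0. Differences over all tissues that were near 0 changed sign. Fosb (0.03) was -0.023 with a pseudocount of 0.1, Egr1 (-0.02) was 0.011 and Egr2 (-0.01) was 0.0040 with median ratio scaling, and Egr2 was 0.0015 without the shallow library. Without the 4 libraries that stood apart in smooth muscle or epithelial genes Fosb was -0.069, Junb -0.030 and Egr3 -0.020. Leaving out single replicates gave -0.036 to 0.082 for Fosb, -0.039 to 0.17 for Junb, -0.18 to 0.14 for Egr1, -0.084 to 0.035 for Egr2 and -0.050 to 0.12 for Egr3. The spread count was 62 of 66 pairs with a mean of at least 5 FPKM. Other scales moved the median of all genes by 0.15 in BAT, 0.15 in duodenum and 0.10 in vein. With the replicate number as a block no gene of the 10 was called, 5 pairs of all genes were (2 without it), and Fos in duodenum had an adjusted p of 0.403. At these depths the genes below 1 FPKM were not tested, and values of BAT estrus replicate 3 rest on a few reads.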
